A study of Mus musculus with 3 samples.

Results

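The hedgehog genes described here are the ligands Shh, Ihh and Dhh, the ligand receptor Ptch1, the signal transducer Smo, the transcription factors Gli1, Gli2 and Gli3, and Hhip, a membrane protein that binds and sequesters the ligands. They were chosen by symbol: every probe set that the platform annotation assigns to a single symbol among these 9 genes was taken, which gave 21 probe sets of the 34945 with 1 symbol, and 9 genes of 18193. All samples came from fetal kidneys of CD-1 mice that carry Tg(Meis1-EGFP)FO156Gsat, a transgene in which Meis1 control elements drive green fluorescent protein, taken at stage E15.5 of embryonic development (Theiler stage 23) and of unknown sex. The kidneys were pooled, about 20 to a pool, and dissociated, and the fluorescent cells were collected by flow sorting. RNA of 3 such pools went through 2 rounds of amplification and onto 1 Affymetrix array each (replicates 1, 2 and 3). There is 1 group, with neither unsorted kidney nor reporter-negative cells, so the values show which hedgehog genes gave a signal in the sorted cells and not what distinguishes them from other kidney cells. The source label calls the cells nephrogenic interstitium and the series title calls them peripheral blastema. All 10 markers listed for nephrogenic interstitium were above background, as were 57.3% of all genes. The list was chosen with earlier results of these data known, so its count is no independent support for the identity of the cells. Among the 10 were the cortical stromal factor Foxd1 (7.46 ± 0.21 log2 units above background) and Meis1 (6.83 ± 0.21), on whose reporter the cells were sorted. Meis2 lay 7.59 ± 0.20 above (SE, n = 3 arrays).

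Hedgehog proteins are secreted, lipid-modified signals. In their absence Ptch1 holds Smo inactive and Gli3, and to a lesser degree Gli2, are cut to repressors. When a ligand binds Ptch1, Smo enters the primary cilium, Gli2 and Gli3 are kept whole, and Gli1, Ptch1 and Hhip are transcribed as targets of the pathway, so that Ptch1 and Hhip feed back on the signal. In the developing kidney Shh is known from the epithelium of the ureter and the medullary collecting ducts, with the surrounding mesenchyme as the responding tissue. Ihh is known from the proximal tubule, and Dhh from Schwann cells, Sertoli cells and some endothelium.

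Each gene was set against the background level of its array, set by 71 genes for receptors of smell, pheromones and trace amines, which belong to sensory neurons: the 95th percentile of their signals. That level was a signal of 136, 186 and 169 in replicates 1, 2 and 3. The distance from background is the log2 signal minus this level, tested above 0 by limma (one-sided), and p-values were adjusted over all genes by the Benjamini-Hochberg method. Where a gene had several probe sets, the brightest stood for it. Over all 18193 genes, 57.3% were above background, and over all probe sets taken singly, 48.6% were.

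None of the 3 ligand genes was above background, while all 6 of the other genes were, beside 57.3% of all genes. By limma at an unadjusted p under 0.05 the count of ligands was also 0. The ligands lay between -1.11 and -0.051 log2 units from the level, and the receptor, transducer, Gli factors and inhibitor between 1.88 and 7.30. In single arrays the highest ligand value was 0.17 and the lowest value of the other genes was 1.57, each gene taken by its brightest probe set. The other genes had more sets to take the brightest from, 16 over 6 genes against 5 over 3. Only 10 of those 16 were above background, and a Ptch1 set at -0.95 lay within the range of the ligands. Only calls against background were compared. Probe sets differ in affinity, so signals of different genes were not ranked, and no test between the 2 groups of genes was made. These are bulk RNA samples, in which fewer cells of a type and less RNA per cell cannot be told apart.

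**Figure D1:**
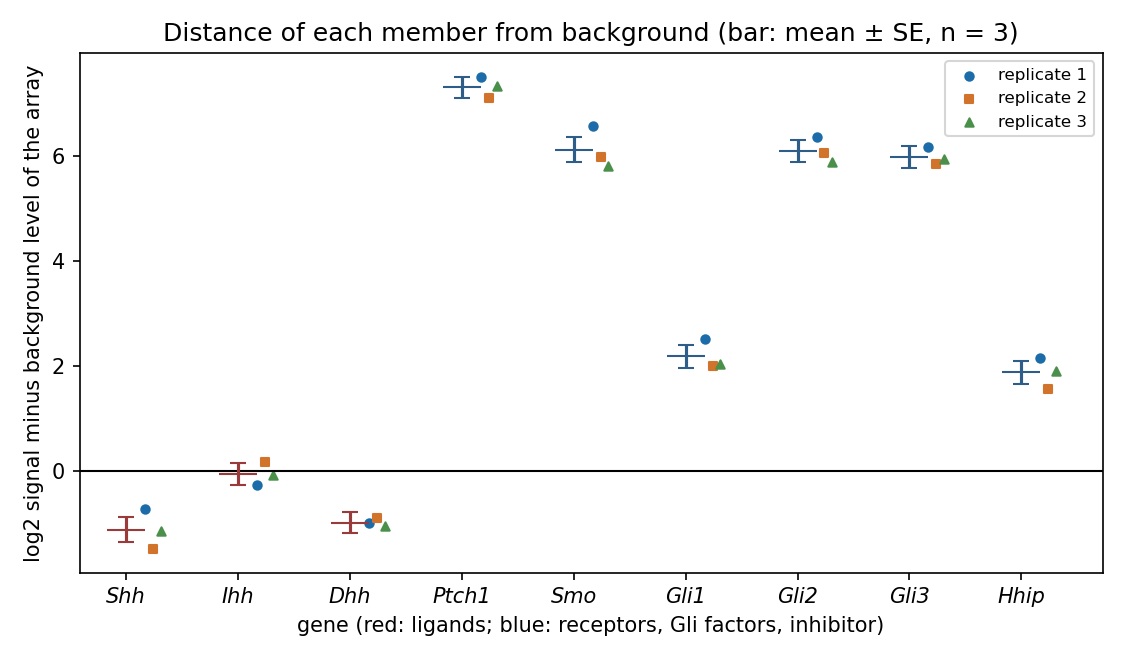
Log2 signal minus the background level of the array for each of the 9 genes. Horizontal bars with caps give the mean ± SE (limma, n = 3 arrays), symbols the single arrays, and the line at 0 the background level. The means of the ligands Shh, Ihh and Dhh (red) lie at or below 0, and those of the other 6 genes (blue) at 1.88 or higher. Of the single arrays, replicate 2 lies at 0.17 for Ihh and at 1.57 for Hhip.

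The ligands were measured by 5 probe sets, and none of the 5 was above background. Shh, the hedgehog ligand of ureter and collecting duct epithelium, gave signals of 83.2, 66.7 and 76.8 in replicates 1, 2 and 3 with its brighter probe set. All 3 values were below the level of their array, and the distance was -1.11 ± 0.23 log2 units (SE, n = 3). Its other probe set read 2.10, 29.3 and 51.0. That second set had the widest spread of all 21 (SD 2.47 log2 units after each array was centred on its median), with replicate 1 far below the others.

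Ihh, the ligand known from proximal tubule and growth plate, has 1 probe set, which read 114, 210 and 161. Replicate 2 exceeded its level by 0.17 log2 units, and replicates 1 and 3 were below theirs. The distance was -0.051 ± 0.21 log2 units (limma adjusted p = 0.942), so Ihh could not be told from background at this precision, and its sign turned in some alternatives without passing the test. Dhh, the ligand of Schwann and Sertoli cells, read 68.5, 99.7 and 82.0 with its brighter probe set, all below background (-0.98 ± 0.19). Its other set read 8.05, 12.3 and 13.4. A value below the level is no proof of absence, because probe sets can fail to detect their transcript.

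Ptch1, the hedgehog receptor and a target of the pathway, was above background on every array. Its brightest probe set read 24481, 25319 and 27017, within 0.17 log2 units of each other after centring. The mean of 25606 ± 1292 (SD, n = 3) lay 7.30 ± 0.20 log2 units above background, or 157-fold (limma adjusted p = 1.04e-06). The call rests on that set alone: the other 2 probe sets read 88.7, 80.3 and 84.5, and 23.5, 70.9 and 44.2, all below the level. With the mean over probe sets Ptch1 lay 1.67 above background and was still called.

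Smo, the membrane protein that Ptch1 holds in check, read 12966, 11710 and 9423 with its brightest probe set. Replicate 3 was the lowest, and all 3 arrays were far above background (6.12 ± 0.24 log2 units, 69.3-fold, limma adjusted p = 1.57e-06). This set is of a kind that can cross-hybridise. A second Smo set that is not of that kind read 4747, 3924 and 3936 and was also above background, at 4.69 ± 0.24. The last Smo set read 21.1, 3.40 and 18.8, below the level on every array.

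All 3 Gli factors were above background. Gli2, the main activator among them in many tissues, read 11183, 12361 and 9937, which is 6.10 ± 0.21 log2 units above background (68.4-fold, limma adjusted p = 1.18e-06). Its second probe set read 2181, 1885 and 1908 and lay 3.61 ± 0.24 above, though it is of the kind that can cross-hybridise. Gli2 was therefore the 1 gene among those with several probe sets of which every set was above background.

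Gli3, the main source of the Gli repressor, read 9742, 10591 and 10364 with its brightest set, 5.98 ± 0.20 log2 units above background (62.9-fold, limma adjusted p = 1.13e-06). The arrays differed by no more than 0.14 log2 units after centring. A second set read 1245, 1674 and 2067 and lay 3.32 ± 0.22 above. It was lowest in replicate 1, and its SD over the centred arrays was 0.38, against 0.077 for the brightest set. The third set read 23.6, 11.8 and 46.6, below background throughout. The arrays measure the transcript and say nothing of how much Gli3 protein was cut to repressor.

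Gli1, an activator whose transcription is itself a readout of the pathway, has 1 probe set. It read 781, 740 and 693, within 0.14 log2 units after centring, and lay 2.18 ± 0.22 log2 units above background (4.54-fold, limma adjusted p = 8.96e-05). Every array was above its level, by 1.99 log2 units at the least.

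Hhip, the ligand-binding inhibitor and another target of the pathway, was above background as well. Its brightest set read 607, 552 and 637, 1.88 ± 0.22 log2 units above background (3.68-fold, limma adjusted p = 0.000189). A second set read 237, 255 and 411, highest in replicate 3, and passed too (0.84 ± 0.25, adjusted p over all probe sets 0.0198). The next set read 178, 155 and 193, which did not pass (0.10 ± 0.23), and the fourth read 7.10, 7.77 and 8.91. When the log2 signals of the 4 sets were averaged, Hhip lay below the level (-0.18), and its call was lost. Distances like those of Gli1 and Hhip also occurred among genes restricted to other tissues. Of 57 such genes 5 were above background (8.77%), at up to 3.05 log2 units.

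**Figure D2:**
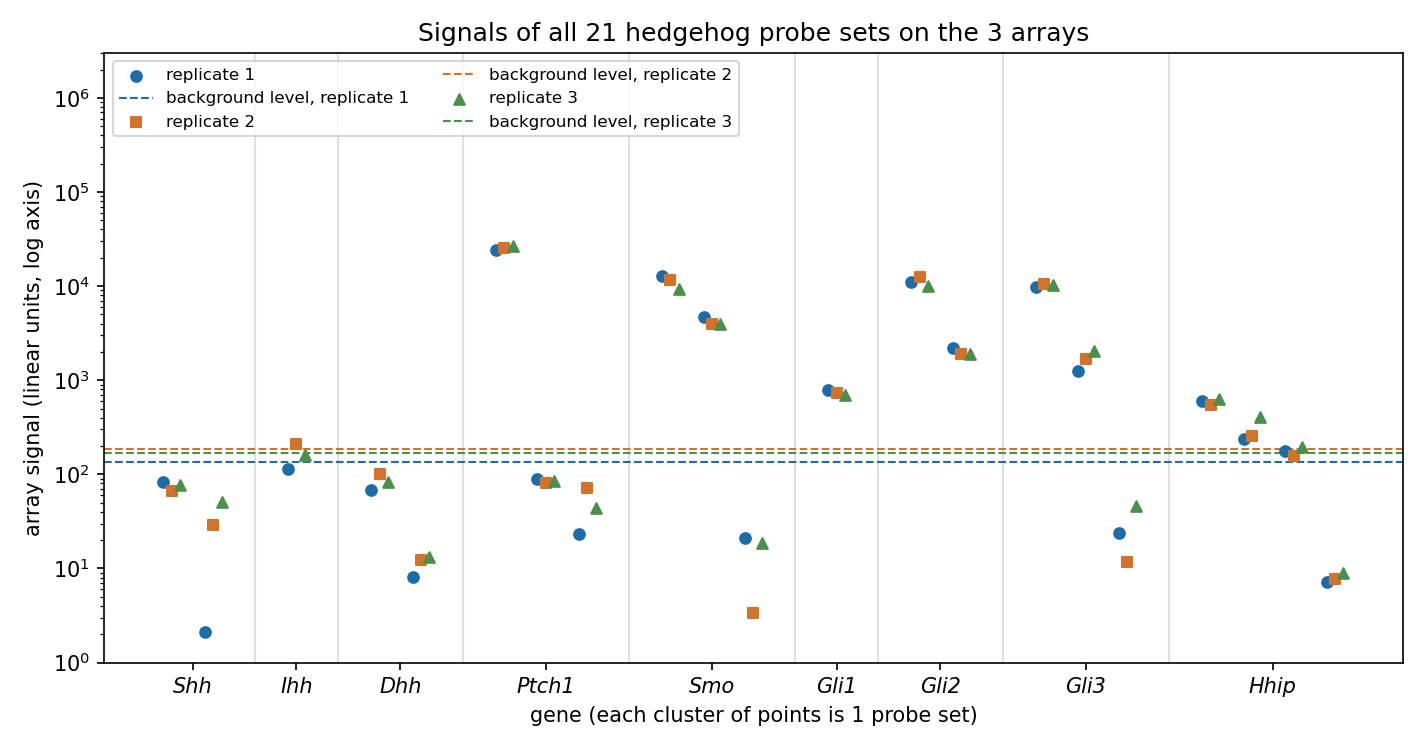
Signal of each of the 21 probe sets (log axis, linear array units) on the 3 arrays, grouped by gene, with the brightest set of each gene at the left. Dashed lines give the background level of each array (136, 186 and 169). All 5 ligand probe sets lie at or under these lines apart from Ihh in replicate 2, while Ptch1, Smo, Gli3 and Hhip each have at least 1 set above them and at least 1 under.

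Taken singly, 10 of the 21 probe sets were above background, 10 of 16 for the receptor, transducer, Gli and inhibitor genes and 0 of 5 for the ligands, against 48.6% of all probe sets. Of the 7 genes with more than 1 probe set, 5 had a set above background, and in 4 of those 5 another set was not above it. The same held for 66.0% of the 6774 such genes on the arrays, so disagreement between sets was common. Brightest and dimmest sets differed by 9.25 log2 units for Ptch1, 10.0 for Smo, 8.76 for Gli3 and 6.24 for Hhip. The signals of the control transcripts fell towards the 5' end on every array: the 3' control set of Gapdh exceeded the 5' set by 5.00, 5.39 and 5.26 log2 units in replicates 1, 2 and 3, and that of Actb by 3.04, 3.40 and 3.04. The part of this gradient in the disagreement between sets, or in the ligand values, was not tested.

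The pools gave much the same values for the genes above background. After centring, the SD over the 3 arrays was 0.071 log2 units for Gli1, 0.077 for Gli3, 0.087 for Ptch1, 0.11 for Hhip, 0.15 for Gli2 and 0.22 for Smo, where the median of all genes above background was 0.16. The spread of Smo exceeded that of 70.0% of those genes and that of Gli1 exceeded 13.6%. Smo fell by 0.43 log2 units from its highest array, replicate 1, to its lowest, replicate 3. No array was the highest for all of them: replicate 1 was highest for Smo and Gli1, replicate 2 for Gli2 and Gli3, and replicate 3 for Ptch1 and Hhip. Among the ligands the SD was 0.15 for Shh, 0.28 for Dhh and 0.45 for Ihh, where genes not above background had a median of 0.56.

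**Figure D3:**
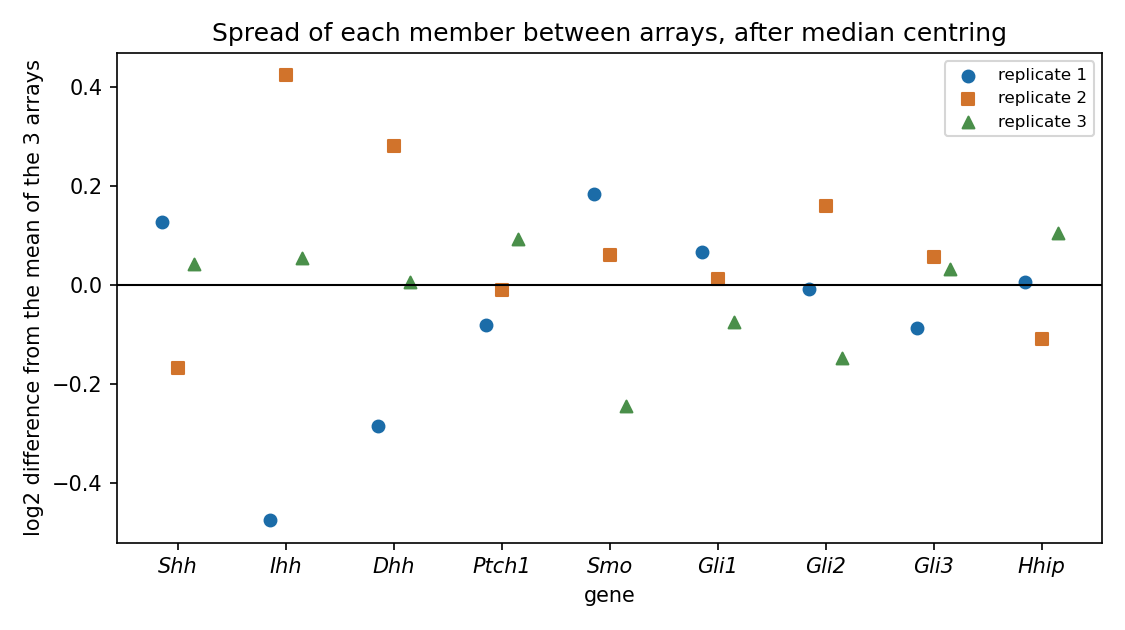
Deviation of the single arrays from the gene's own mean (log2), once arrays had been centred on their median over genes, for the 9 genes. Smo, with an SD of 0.22, spreads the most among the 6 genes above background, and Ihh, at 0.45, among the ligands.

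Promoters of 7 of the 9 genes could be matched in RefSeq (GRCm38.p6), as windows from 250 bases before to 50 after the start of transcription. Ihh, Ptch1 and Gli2 are printed to set a ligand that was not above background beside a receptor and a factor that were. CG dinucleotides are in capitals, since a high density of them marks CpG island promoters. The windows are chr1:74951623-74951922, minus strand, for Ihh, chr13:63565686-63565985, minus strand, for Ptch1, and chr1:119053570-119053869, minus strand, for Gli2, each written 5' to 3' along the gene.
Ihh: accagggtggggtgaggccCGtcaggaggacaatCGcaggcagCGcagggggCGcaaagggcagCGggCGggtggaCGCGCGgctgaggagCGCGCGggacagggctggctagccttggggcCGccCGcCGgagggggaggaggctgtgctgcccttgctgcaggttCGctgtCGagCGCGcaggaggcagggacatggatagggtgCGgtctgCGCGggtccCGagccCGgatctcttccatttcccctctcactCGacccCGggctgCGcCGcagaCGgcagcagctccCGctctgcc
Ptch1: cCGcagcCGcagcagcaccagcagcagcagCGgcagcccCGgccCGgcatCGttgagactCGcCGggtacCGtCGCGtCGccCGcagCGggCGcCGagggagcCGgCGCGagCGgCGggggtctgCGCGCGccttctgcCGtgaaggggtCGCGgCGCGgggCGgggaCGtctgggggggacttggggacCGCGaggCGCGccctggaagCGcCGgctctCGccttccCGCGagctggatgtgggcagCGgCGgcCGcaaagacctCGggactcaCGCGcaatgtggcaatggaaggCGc
Gli2: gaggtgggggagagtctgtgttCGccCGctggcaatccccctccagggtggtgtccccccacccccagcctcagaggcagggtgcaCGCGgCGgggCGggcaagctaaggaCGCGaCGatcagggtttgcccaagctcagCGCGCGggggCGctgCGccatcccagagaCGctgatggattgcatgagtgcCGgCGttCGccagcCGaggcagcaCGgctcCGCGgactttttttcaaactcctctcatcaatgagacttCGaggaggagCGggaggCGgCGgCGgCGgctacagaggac

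All 7 windows were richer in G and C than the median promoter (52.7% over 32851 promoters). Ptch1 had 76.3% and 47 CG dinucleotides, Hhip 73.7% and 30, Ihh 72.7% and 30, Gli3 71.0% and 39, Smo 67.7% and 17, Gli2 67.3% and 28, and Dhh 61.7% and 12, where the median promoter had 7 CG dinucleotides. The ligand Ihh thus had as many as the inhibitor Hhip, while the ligand Dhh had the fewest of the 7. Shh and Gli1 were not matched. The letters GACCACCCA, a Gli recognition sequence, were searched on both strands and were in none of the 7 windows, and in 0.253% of all promoters. The shorter ACCACCC, which lies within the longer one, was in 4.61% of all promoters and, among the 7, in Gli2 alone, on the strand opposite to the gene and beginning 205 bases before its start. A match of letters is not a binding site, and many Gli sites lie outside such windows.

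The other genes of the pathway were taken from lists ordered by role, with Gas1 in both the co-receptor and the mesenchymal target list and counted once in the total. Of 65 such genes 63 had a value here, and 50 of them were above background (79.4%, where all genes gave 57.3%), with a median distance of 3.73 log2 units, where the median of all genes was 1.51.

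Genes that make and release the ligand were above background in 3 of 6 cases (57.3% for all genes). Hhat, the enzyme that attaches palmitate to hedgehog proteins, read 1636, 1348 and 1609 and lay 3.23 ± 0.23 log2 units above background. Disp1, which releases the lipid-bearing ligand from the cell that makes it, read 705, 572 and 588 (1.93 ± 0.23). Of the secreted Scube proteins, which carry the released ligand, Scube3 was above background (3.28 ± 0.28) and highest in replicate 1, at 2119, against 1538 and 1195. Scube1 (-2.31 ± 0.23) and Scube2 (-3.25 ± 0.39) were not, and neither was Disp2, a relative of Disp1 (-0.44 ± 0.23).

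Ligand-binding proteins at the cell surface were above background in 5 of 7 cases (57.3% for all genes). All 3 classical co-receptors that help Ptch1 to bind ligand were among them. Gas1 read 21732, 18107 and 21585 and lay 6.97 ± 0.23 log2 units above background, Cdon read 6933, 8740 and 8874 (5.64 ± 0.19), and Boc read 3849, 4073 and 3393 (4.53 ± 0.21). The glypican Gpc6 lay 6.38 ± 0.21 above. Gpc3, a glypican that competes with Ptch1 for ligand, lay 5.43 ± 0.27 above and differed between pools, with 4797 and 6197 in replicates 1 and 2 and 11493 in replicate 3. Gpc5 (-2.79 ± 0.64) and the endocytic receptor Lrp2 (-0.65 ± 0.22) were not above background.

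Every measured gene between Smo and the Gli factors was above background, where all genes gave 57.3%. Counts were 9 of 9 for Smo regulation, 13 of 13 for Gli processing and 11 of 11 for cilium transport. Gli processing gave 11 of 13 with the level from genes restricted to other tissues (all genes 49.5%). With the mean over probe sets it also gave 11 of 13 (all genes 50.4%). Without probe sets able to cross-hybridise, Smo regulation gave 8 of 9 and cilium transport 10 of 11 (all genes 55.8%). Evc (1.64 ± 0.23 log2 units) and Evc2 (3.32 ± 0.23), which form a complex with Smo at the base of the cilium, were above background with their anchors Iqce (2.17 ± 0.26) and Efcab7 (4.17 ± 0.21). The arrestins Arrb1 and Arrb2 lay 2.55 ± 0.33 and 2.16 ± 0.23 above. Arrb2 fell below the level (-0.32) without probe sets able to cross-hybridise.

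Sufu, the protein that holds Gli factors inactive, lay 4.76 ± 0.21 log2 units above background, and the ciliary kinesin Kif7 2.77 ± 0.23. The kinases Stk36 (1.31 ± 0.23) and Ulk3 (1.47 ± 0.20) were also above it, but both lost their calls when it was taken from genes restricted to other tissues (0.23 and 0.40). With the mean over probe sets Stk36 (0.43) and Prkacb (-0.23), another gene of this list, lost theirs. Spop, an adaptor that delivers Gli proteins for breakdown, lay 5.68 ± 0.22 above, and its ubiquitin ligase partner Cul3 6.07 ± 0.20.

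Genes of transport within the cilium lay between 3.49 and 6.32 log2 units above background. Ift88 lay 4.82 ± 0.20 above, Ift172 3.49 ± 0.21, Ift140 5.20 ± 0.22, Ift27 4.06 ± 0.24 and Wdr35 5.04 ± 0.23. Ift122 lay 5.51 ± 0.21 above with a set that can cross-hybridise, and 0.19 without such sets, where its call was lost.

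Genes known as hedgehog targets in mesenchyme were above background in 10 of 13 cases (76.9%, where all genes gave 57.3%). At the 99th percentile the count was 8, where all genes gave 52.9%. With the level from genes restricted to other tissues it was also 8, where all genes gave 49.5%. Among the first in the list, Tbx18, a factor of ureteric mesenchyme, lay 3.33 ± 0.23 log2 units above background. The forkhead factor Foxf1 (1.07 ± 0.21, limma adjusted p = 0.00237) and the growth factor Bmp4 (0.88 ± 0.22, adjusted p = 0.00710) lay near it, and both lost their calls with a stricter level, the 99th percentile (0.59 and 0.40). Foxf2 (-1.32 ± 0.38), Foxl1 (-2.88 ± 0.55) and Osr1 (-3.14 ± 0.37) were not above background. These genes have other inputs, and the list does not separate targets that hedgehog signalling induces from any that it represses. Their levels are therefore no measure of hedgehog signalling. Of the targets known from the ventral neural tube none of 5 measured was above background: Foxa2 lay at -2.82 ± 0.64, Nkx2-2 at -2.46 ± 0.36, Nkx6-1 at -3.98 ± 0.20, Olig2 at -5.05 ± 0.31 and Nkx2-9 at -0.089 ± 0.35. At an unadjusted limma p under 0.05 the count was also 0.

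**Figure D4:**
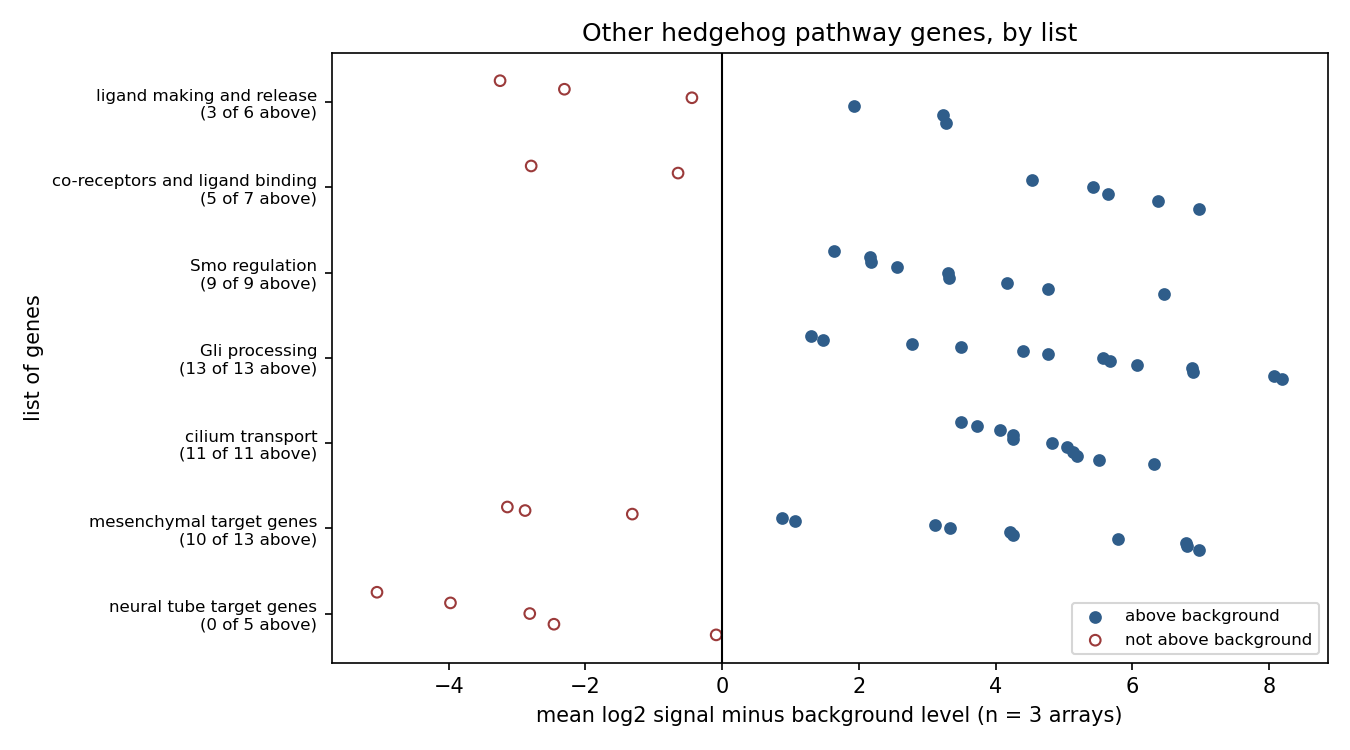
Mean distance from background (log2, n = 3 arrays) of the 63 other hedgehog pathway genes by list, 1 point per gene, with Gas1 shown in both of its lists. Points within a list are spread vertically for legibility only. The lists for Smo regulation, Gli processing and cilium transport lie wholly to the right of 0, the neural tube targets wholly to the left, and ligand release, co-receptors and mesenchymal targets on both sides.

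Markers of the cell types from which the ligands are known were read on the same arrays. Of 15 genes of ureteric and collecting duct epithelium, where Shh is known, 6 were above background (40%, where all genes gave 57.3%). The ligand Wnt11 of ureteric tips lay at 2.05 ± 0.23 log2 units, while Ret (-0.35 ± 0.25) and Wnt9b (-0.14 ± 0.21) were not above it. Epcam, an epithelial adhesion protein, read 3148, 2398 and 3004 in replicates 1, 2 and 3 and was also above background (4.12 ± 0.24). So were Krt18 (2.18 ± 0.22), Calb1 (1.63 ± 0.28), Aqp2 (0.62 ± 0.24) and Wnt7b (0.60 ± 0.24). Wnt7b was not called in 8 of 13 alternatives, which included the 99th percentile (0.12) and the removal of any single replicate. Aqp2 was not called in 5 of 13, which included the 99th percentile (0.15) and the removal of replicate 1 or 3. Averaging its probe sets put Calb1 at -1.44, where it was no longer called. Hoxb7, Krt8, Krt19, Cdh1, Gata3, Upk1b and Upk3a were not above background. Summed over the list, their signals were 6603, 5521 and 6510 in replicates 1, 2 and 3. Of 8 proximal tubule genes, where Ihh is known, none was above background, with Slc34a1 at -0.61 ± 0.28, Lrp2 at -0.65 ± 0.22 and Cubn at -0.70 ± 0.20 (summed signals 653 to 754; 0 also at an unadjusted limma p under 0.05). Of 5 measured Schwann and neural crest genes 1 was (Erbb3, at 1.41 ± 0.20), with Sox10 at -0.21 ± 0.20 and S100b at -0.53 ± 0.24 (summed signals 785 to 1129). Of 9 endothelial genes 4 were above background (44.4%, where all genes gave 57.3%). Tek lay at 2.85 ± 0.20, Emcn at 1.55 ± 0.25, Cdh5 at 1.30 ± 0.22 and Kdr at 1.06 ± 0.20. Pecam1 (-1.65 ± 0.72), Flt1, Cldn5, Tie1 and Sox17 were not above background (summed signals of the list 2588 to 3391). Tek and Emcn kept their calls in every alternative. Genes of ureter mesenchyme and smooth muscle were above background in 5 of 8 cases (62.5%, where all genes gave 57.3%). These were Tbx18, Tshz3 (3.11 ± 0.20), Bmp4, Acta2 (5.36 ± 0.24) and Myocd (0.89 ± 0.32). The contractile genes Cnn1 (-5.79 ± 0.29), Tagln (-0.41 ± 0.27) and Myh11 (0.0015 ± 0.20) were not above background. Acta2 lost its call without probe sets able to cross-hybridise (-1.89) and with the mean over probe sets (-0.33). Myocd lost its call in 5 of 13 alternatives, among them that mean (-1.13) and leaving out replicate 1 or replicate 3. Of 8 genes of nephron progenitors 5 were above background (62.5%, where all genes gave 57.3%). Itga8 lay at 5.46 ± 0.24, Eya1 at 3.46 ± 0.27, Meox1 at 2.58 ± 0.21, Six2 at 1.85 ± 0.20 and Crym at 1.02 ± 0.28. Cited1 (-4.21 ± 0.19), Osr1 and Tmem100 were not above background. Itga8, Meox1 and Six2 kept their calls in every alternative. Calls were also lost by Eya1 (-0.29), Erbb3 (-0.75) and Cdh5 (-0.044) with the mean over probe sets. At the 99th percentile Kdr (0.59) and the nephron progenitor gene Crym (0.55) lost theirs. With the level from genes restricted to other tissues Erbb3 (0.33), Cdh5 (0.23), Kdr (-0.0069), Bmp4 (-0.19) and Crym (-0.048) did. The part of these other cells in the values of the hedgehog genes was not tested.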

How the data were processed

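The authors deposited linear intensity values from 1-colour arrays, with 1 value for a probe set on each of 3 arrays. GCOS is named in the submitters' processing notes, and further settings are not stated there. With 2% trimmed from both ends, the mean signal was 1500.01 on each array, so the values had been scaled. Median signals were 143, 162 and 187, and Pearson's r between arrays, across genes, was 0.968 to 0.969.

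Of 45101 probe sets, 64 controls and those with several symbols (932) or none (9160) were set aside. Symbols come from the platform annotation, looked up by Entrez ID in RefSeq (GRCm38.p6; 34741 of 34945 matched, none changed). A gene was represented by the probe set whose mean log2 signal was highest. Log2 needed no pseudocount. limma 3.58.1 in R 4.3.3 (lmFit with an intercept, eBayes with prior df 3.69) tested log2 signal minus the background level across all genes, and again across all probe sets, at an adjusted p of 0.05; adjusted p-values are of the gene fit unless said otherwise, and distances of single further probe sets carry the SE of the probe set fit. The fit was tested on simulated data. Each SE also carries the spread of the background levels. Whether pools came from separate litters is not in the labels; p-values therefore measure the spread among these samples alone, which may be technical, and the number of arrays limits the precision.

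The genes, lists and alternatives were chosen with earlier results of these data known. Named are all 9 genes with every probe set, all measured genes of pathway lists with 8 or fewer and the first 6 of longer ones, and the first 3 of each cell type list. Genes named only as having lost a call in an alternative, or added to complete a cell type list, fall outside that rule. Alternatives were other background levels, gene summaries, filters and normalization, and leaving out each replicate. Proteins were not compared here, and some items are not reported here.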

Additional observations from a re-analysis of the deposited data

How the results depend on the processing

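Under all 13 alternatives, including those that left out replicate 1, 2 or 3, no ligand gene was above background. All 6 of the other genes were above it in 12 of the 13. The exception was the mean over probe sets, where Hhip lay at -0.18 log2 units. Ihh, which had no call in any setting, turned from -0.051 to 0.30 with the level at the 90th percentile, to 0.15 with the mean over probe sets and, when replicates were left out in turn, ran from -0.16 (without replicate 2) to 0.052 (without replicate 1). With that mean Ptch1 lay at 1.67, Smo at 2.51 and Gli3 at 2.38, all still called. A level from 57 genes restricted to other tissues, of which 5 were above the main level, put Gli1 at 1.11 and Hhip at 0.81, both still called. The count over all genes ran from 9004 with that level to 10976 at the 90th percentile, against 10422, and that of the other pathway genes from 46 to 50. No paired analysis was possible because there is 1 group. With 3 arrays of 1 group, no distance under about 0.48 log2 units was called. That value is no fixed limit, because a call also depends on the spread of the gene. Gdf9, for one, lay at 0.65 and was not called (limma adjusted p = 0.0553).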

Other observations

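A contrast between kinds of probe set was noticed after the values were seen. Of the 6 probe sets of these genes that the platform annotation ties to a RefSeq transcript, 1 was above background (that of Gli1), while those of Ihh, Dhh, Ptch1, Gli3 and Hhip were not. Of the 15 tied to other sequence records, 9 were. Over all genes the 2 kinds did not part in this way: 48.8% of 5897 RefSeq-tied sets and 48.6% of 29048 others were above background. Of 1602 genes that had both kinds and at least 1 set above background, 824 had both kinds above, 380 only the RefSeq-tied kind and 398 only the other kind. Ihh has only a RefSeq-tied set, so its value has no second set to be read against, whereas Shh and Dhh each have a set of the other kind that was also not above background. Why the sets differ was not tested.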
